A study of Mus musculus with 16 samples.

Results

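Complement is a set of proteins that tag debris, microbes and synapses for removal and call in phagocytes. C1q, built from an A, a B and a C chain, starts the classical pathway, which runs through C4 and C2 to the cleavage of C3, while factor B and properdin drive and stabilize the alternative pathway. Fragments released from C3 and C5 act on the receptors C3aR1 and C5aR1 of myeloid cells, and in the brain microglia are the main makers of C1q. The genes described here are 9 of the 55385 listed by symbol in a table of read counts per gene: *C1qa*, *C1qb*, *C1qc*, *C3*, *C4b*, *Cfb* (factor B), *Cfp* (properdin), *C3ar1* and *C5ar1*. They were taken by symbol as components and receptors of complement, and all 9 were in the table.

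The counts come from RNA of CD11b+ cells, pulled with magnetic beads from perfused brains of mice 20 weeks old after removal of the meninges and choroid plexus. The paper describes the 5xFAD mice obtained for its crosses as female and gives no separate sex for the sequenced mice. There were 16 libraries, 4 of each genotype: WT (no 5xFAD transgenes and *Card9* intact), *Card9*-/- (*Card9* deficient, no transgenes), 5xFAD (the transgenes with *Card9* intact) and *Card9*-/-5xFAD (both). The 5xFAD transgenes are human genes with familial Alzheimer's disease mutations, driven in neurons by the *Thy1* promoter, so amyloid-β is made by neurons and not by the sorted cells, and the deletion of *Card9*, an adaptor of immune receptors, is germline and so present in every cell. The labels number the libraries 1 to 4 in each genotype without naming animals or batches, so the p-values below measure the spread between these libraries.

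Library totals ran from 2970148 to 19333325 counts, with the lowest in *Card9*-/-5xFAD 4 and *Card9*-/- 4. *Cst7*, a gene of amyloid-associated microglia, had 1616 to 4417 counts per 1000000 of library size scaled by TMM (CPM) in the 8 libraries labelled with transgenes and 15.7 to 51.6 CPM in the other 8. *Card9* itself did not separate the *Card9* labels: it had 9.73 to 34.8 CPM in the 8 libraries labelled deficient and 13.6 to 51.3 CPM in the rest (log2 fold change −0.39, edgeR adjusted p = 0.678, averaged over the transgenes). Counts per gene do not show which exons the reads fell on, so every *Card9* direction below rests on the labels. The sum of 8 microglia markers was 12392 to 14288 CPM in 1 library of each genotype (WT 1, *Card9*-/- 4, 5xFAD 1 and *Card9*-/-5xFAD 4) and 20179 to 32116 CPM in the other 12, and none of the 8 markers was at 0 in all libraries. The same 4 libraries held 2112 to 6325 CPM of 9 neutrophil markers, against 497 to 2415 CPM in the other 12, and 1128 to 2497 CPM of 5 choroid plexus markers, against 3.06 to 857 CPM. Results are given with all 16 libraries and, where it matters, without these 4. In bulk RNA, fewer cells of a type and less RNA per cell cannot be told apart.

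Levels of different genes are compared per kilobase of exon, from CPM scaled to edgeR's TMM library sizes. The members spanned nearly the whole range of expression. *C1qb* averaged 5957 ± 2349 CPM per kb (SD, n = 16), *C1qc* 2954 ± 1260 and *C1qa* 1970 ± 862, and their median ranks were 2, 8 and 15 among 48481 genes with a known exon length. The 3 chains together took 0.640% to 2.28% of all counts of a library. The receptors followed, with *C3ar1* at 95.5 ± 34.0 and *C5ar1* at 85.9 ± 35.4 CPM per kb. Their order was not the same with and without the transgenes. With them, *C3ar1* averaged 114 ± 33.8 and *C5ar1* 78.0 ± 31.5 CPM per kb (n = 8). Without them, the values were 76.7 ± 22.9 and 93.9 ± 39.4 (n = 8). The difference between the receptors, which were measured in the same libraries, was not tested. *Cfp* had 30.1 ± 15.5 CPM per kb, *C4b* 5.17 ± 3.07 and *C3*, the component on which all routes meet, only 1.63 ± 0.714. Factor B was hardly detected: *Cfb* had 4 reads in all, 1 in *Card9*-/- 3, 1 in 5xFAD 2 and 2 in *Card9*-/-5xFAD 2, and 0 in the other 13 libraries. A count of 0 allows a level of up to 0.124 to 1.2 CPM in these libraries, where 3 counts is the limit and counting error alone is covered. In the GENCODE M21 annotation 79.5% of the exon bases of *Cfb* are also exon of the readthrough gene *Gm20547* on the same strand, which itself had 0 counts in every library, so reads on shared bases may have been set aside in the counting.

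**Figure D1:**
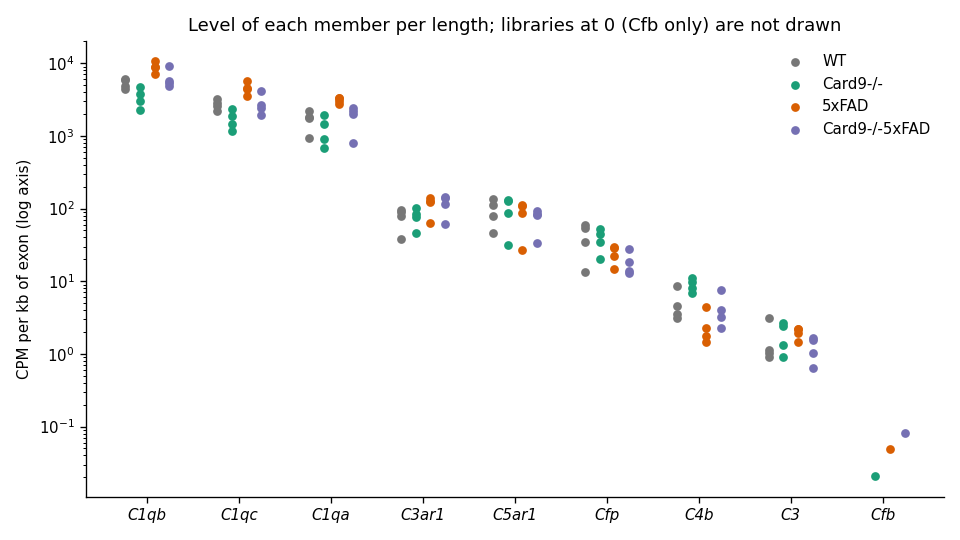
Level of each of the 9 complement members in each library, as CPM per kb of exon on a log axis, colored by genotype, with members ordered by their mean. The C1q chains lie near the top of the scale at average levels of 1970 to 5957 CPM per kb, C3 lies at 1.63 CPM per kb, and Cfb is drawn for only the 3 libraries in which it had a read.

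The C1q chains lie side by side on chromosome 4 (GRCm38, minus strand): *C1qb* at chr4:136880129-136886187, *C1qc* at chr4:136889804-136893065 and *C1qa* at chr4:136895917-136898803. Because the counts of *C1qb* and *C1qc* followed each other so closely across libraries, the RefSeq sequence before their transcription starts is shown. It is printed from GRCm38.p6, 5′ to 3′ on the minus strand, for chr4:136886201-136886450 before *C1qb* and for chr4:136893066-136893164, the bases of the *C1qc* window that lie before the GENCODE gene. Capitals mark matches to the motifs searched.
C1qb: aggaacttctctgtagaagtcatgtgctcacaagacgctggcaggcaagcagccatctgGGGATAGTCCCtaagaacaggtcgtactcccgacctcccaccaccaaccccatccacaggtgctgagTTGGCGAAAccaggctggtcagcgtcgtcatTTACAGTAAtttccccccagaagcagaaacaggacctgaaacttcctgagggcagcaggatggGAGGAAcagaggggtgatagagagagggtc
C1qc: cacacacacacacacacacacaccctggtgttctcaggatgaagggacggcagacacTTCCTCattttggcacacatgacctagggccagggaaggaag
The motifs were searched on both strands of windows from 250 bases before to 50 after the start, and 6 of the 9 members matched a window (*C1qb*, *C1qc*, *C3*, *Cfp*, *C3ar1* and *C5ar1*). The core of the site of PU.1, a factor of myeloid genes, spelled GAGGAA, was found before *C1qb* at −30, before *C1qc* on the other strand at −193 (TTCCTC above), and after the start of *Cfp*, and in 28.3% of 32851 promoters. An NF-κB motif, spelled GGGA and CC with 4 bases between them, was found in *C1qb*, *C1qc* and *C3* and in 20.7% of promoters. A C/EBP motif, TTNCNNNAA, was found in the same 3 members and in 36.6% of promoters. In *C1qc* the NF-κB match (at −40) and the C/EBP matches (at −82 and −81) lie inside the GENCODE gene, past the bases printed above. A shorter C/EBP motif, TTGCNNAA (10.8% of promoters), was held by *C3* alone of the 6, at a place that did not overlap its longer match. The AP-1 motif TGANTCA (7.81% of promoters) was found in *C3ar1* alone of the 6, 22 bases before its start. No member window held an interferon response motif, GAAA repeated after 2 bases (3.44%), or the E-box CACGTG (7.15%). The matches describe letters and carry no evidence of binding.

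The first question was how these genes stood in microglia of brains with amyloid-β. For all 3 chains of C1q, the trigger of the classical pathway, the 5xFAD libraries lay above the WT libraries without overlap, as 8.04% of all genes tested did in either direction. *C1qa* had 975, 1838, 2285 and 1906 CPM in WT 1 to 4, and 1982, 949, 1523 and 700 CPM in *Card9*-/- 1 to 4. It reached 2894, 3403, 3452 and 3136 CPM in 5xFAD 1 to 4, and 2047, 2319, 2529 and 836 CPM in *Card9*-/-5xFAD 1 to 4. Every 5xFAD library lay above every other library, whereas *Card9*-/-5xFAD overlapped with both groups that lack transgenes.

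*C1qb* had 6444, 5288, 6543 and 4825 CPM in WT 1 to 4 and 5184, 2476, 4042 and 3277 CPM in *Card9*-/- 1 to 4. With the transgenes it had 9523, 9588, 11538 and 7639 CPM in 5xFAD and 5836, 6146, 9988 and 5361 CPM in *Card9*-/-5xFAD. Each transgenic group thus lay above its own control group without overlap, but *Card9*-/-5xFAD overlapped with WT. *C1qc* had 5408, 4942, 6146 and 4235 CPM in WT, and 4533, 2262, 3637 and 2780 CPM in *Card9*-/-. It had 8653, 8925, 11058 and 6927 CPM in 5xFAD, and 4731, 5200, 8059 and 3772 CPM in *Card9*-/-5xFAD. The 5xFAD and WT libraries did not overlap, and *Card9*-/-5xFAD overlapped with *Card9*-/- through library 4.

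**Figure D2:**
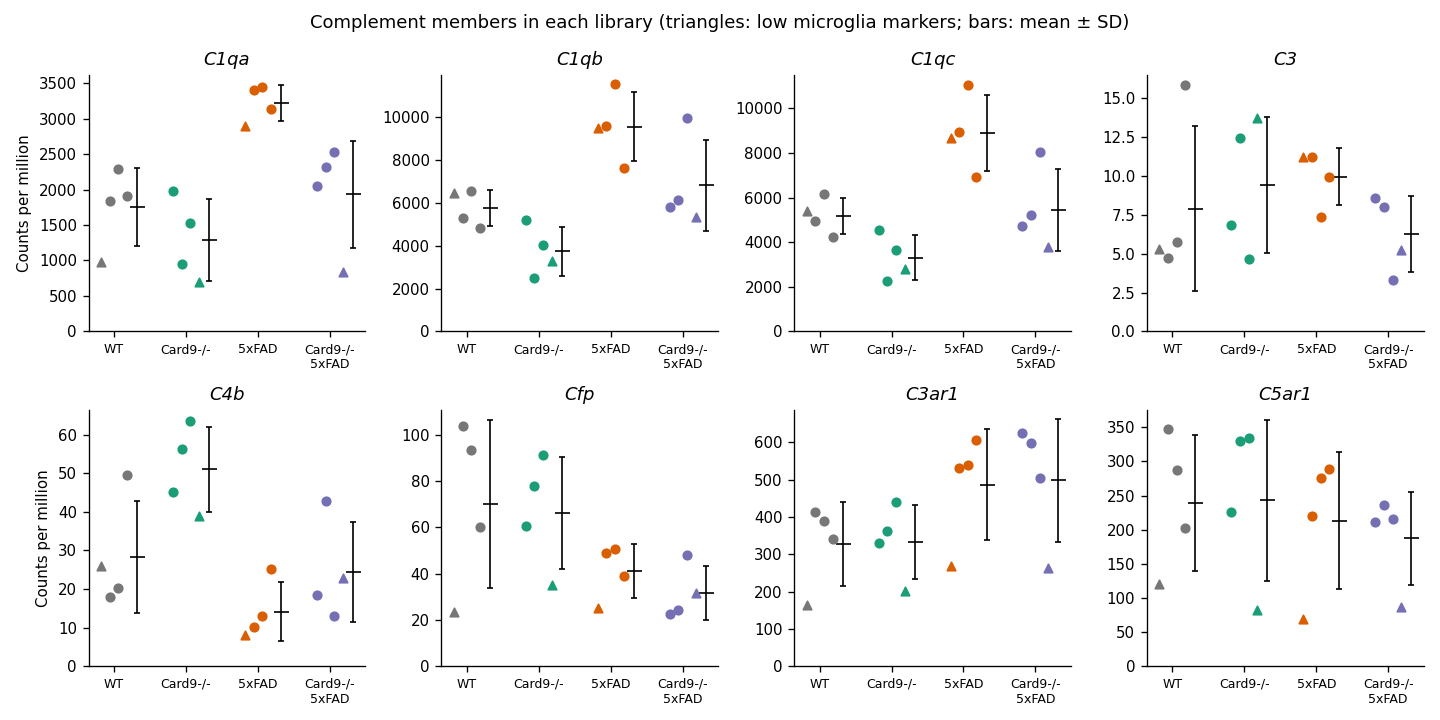
CPM of the 8 members that passed the filter on low counts, in each library (points, in replicate order) with the mean ± SD of each genotype (bars, n = 4) on linear axes from 0. Triangles are the 4 libraries of lowest microglia markers, which are the lowest of their genotype for C3ar1 and C5ar1, while WT 1 is among the higher WT libraries for C1qb (6444 CPM).

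Averaged over both *Card9* genotypes, *C1qb* rose by 0.80 on the log2 scale with the transgenes (SE 0.21, 1.74-fold, edgeR adjusted p = 0.0306) and *C1qc* by 0.75 (SE 0.21, 1.68-fold, adjusted p = 0.0468). *C1qa* had a change of similar size, 0.73 (SE 0.27), that missed the threshold of 0.1 (adjusted p = 0.122). Of the 8 members tested, 4 passed in this contrast (2 higher and 2 lower), against 11.3% of the 14513 genes tested (5.62% higher and 5.73% lower). The median log2 fold change was 0.23 over the 8 members and −0.15 over all genes tested. The count of 4 fell to 1 without WT 4, without *Card9*-/- 2 or without 5xFAD 3, and to 2 without 5xFAD 2, *Card9*-/-5xFAD 1 or *Card9*-/-5xFAD 3, and of the 16 fits that left out 1 library, *C1qb* passed in 16, *C1qc* in 12 and *C4b* in 10. Here DESeq2 called 5 members, against 2460 of all genes with an adjusted p (13.2%).

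C4b and properdin moved the other way. *C4b*, which codes for the C4 that C1q-bound protease cleaves, had 25.9, 17.9, 20.3 and 49.5 CPM in WT and 45.3, 56.3, 63.7 and 38.9 CPM in *Card9*-/-. With the transgenes it had 8.19, 10.1, 13 and 25.2 CPM in 5xFAD and 18.6, 42.8, 13 and 22.8 CPM in *Card9*-/-5xFAD. Low values lay mostly in 5xFAD and high values in *Card9*-/-, and each transgenic group overlapped with its control group in 1 library. *C4b* fell by 1.04 on the log2 scale with the transgenes (SE 0.30, adjusted p = 0.0533). Its near copy *C4a* had 0 to 7 counts per library, and counting both together left the *C4b* value within its SE.

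*Cfp*, which codes for properdin, the plasma protein that stabilizes the alternative pathway convertase, had 23.2, 104, 93.2 and 60.1 CPM in WT and 60.6, 77.9, 91.1 and 35.0 CPM in *Card9*-/-. In 5xFAD it had 25.2, 48.9, 50.7 and 39.1 CPM, and in *Card9*-/-5xFAD 22.6, 24.2, 48.1 and 31.6 CPM. The lowest control values came from WT 1 and *Card9*-/- 4, both among the libraries of low microglia markers, and set the overlap. *Cfp* fell by 0.92 on the log2 scale (SE 0.30, adjusted p = 0.0776), a call that 12 of the 16 fits leaving out 1 library lost. Without the 4 libraries of low microglia markers it fell by 1.05 (SE 0.22, adjusted p = 0.00551).

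With the transgenes, markers of brain border macrophages, which also express complement genes, moved in the same direction as *C4b* and *Cfp*. Of 6 such markers, 4 passed as lower with the transgenes, as did 5.73% of all genes tested. The sum of the 6 was 853 to 1695 CPM in the 8 libraries without and 370 to 1579 CPM in the 8 with the transgenes. None of the 6 was at 0 in all libraries. Of 9 neutrophil markers, 3 were lower (summed 1109 to 6325 CPM without and 497 to 5991 CPM with the transgenes), and of 6 monocyte markers, 2 (152 to 497 and 104 to 289 CPM). Within genotypes the border macrophage sum and *Cfp* rose together in some libraries and not in others. The sum was the highest of its genotype in WT 1 (1432 CPM), *Card9*-/- 4 (1695 CPM) and 5xFAD 1 (646 CPM). In these libraries *Cfp* was the lowest of its genotype (23.2, 35.0 and 25.2 CPM). *Card9*-/-5xFAD 4 also had the highest sum of its genotype (1579 CPM), but its *Cfp* (31.6 CPM) was not the lowest. From library 1 to 3 the sum and *Cfp* both rose in *Card9*-/- (sums of 853, 937 and 1098 CPM). The same held in *Card9*-/-5xFAD 1 to 3 (370, 481 and 664 CPM). In WT 2 to 4 (940, 880 and 1063 CPM) and 5xFAD 2 to 4 (585, 562 and 515 CPM) the sum and *Cfp* differed in order. The part of these cell types in the *C4b* and *Cfp* values was not tested.

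*C3*, the central component, was low throughout. It had 4.71 to 15.8 CPM in WT, 4.68 to 13.7 in *Card9*-/-, 7.37 to 11.2 in 5xFAD and 3.30 to 8.58 in *Card9*-/-5xFAD, from 13 to 300 counts per library. All groups overlapped, and the change with the transgenes was −0.11 (SE 0.32, 95% interval −0.79 to 0.56, adjusted p = 0.863) on the log2 scale.

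Neither receptor passed over all 16 libraries. *C3ar1*, the receptor of the C3a fragment, had 164, 413, 390 and 342 CPM in WT and 331, 362, 441 and 201 CPM in *Card9*-/-. It had 268, 531, 539 and 606 CPM in 5xFAD and 625, 600, 504 and 264 CPM in *Card9*-/-5xFAD. The low value of each genotype came from its library of low microglia markers, and the 6 other transgenic libraries lay above the 6 other controls. The share of all genes that separated in this way was not counted, and 34.5% of 14352 genes passed in these 12 libraries. Over all 16 libraries the change was 0.58 on the log2 scale (SE 0.27, adjusted p = 0.207), which did not pass, and over the other 12 it was 0.61 (SE 0.13, adjusted p = 0.00628). *C5ar1*, the receptor of C5a, had 120, 348, 288 and 203 CPM in WT and 226, 329, 334 and 81.8 CPM in *Card9*-/-. It had 68.7, 220, 276 and 289 CPM in 5xFAD and 211, 237, 216 and 86.9 CPM in *Card9*-/-5xFAD. The 4 libraries of low microglia markers were again the lowest of their genotypes, the groups overlapped, and the change was −0.27 (SE 0.35, adjusted p = 0.691) over all libraries and −0.23 (SE 0.17, adjusted p = 0.327) over the 12.

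Over these 12 libraries, 6 of the 8 members passed with the transgenes, with *C1qa*, *C1qb*, *C1qc* and *C3ar1* higher and *C4b* and *Cfp* lower, against 34.5% of 14352 genes tested. The values were 0.71 (SE 0.18, adjusted p = 0.0120) for *C1qa*, 0.88 (SE 0.22, adjusted p = 0.0117) for *C1qb*, 0.83 (SE 0.22, adjusted p = 0.0153) for *C1qc* and −0.98 (SE 0.34, adjusted p = 0.0508) for *C4b*, on the log2 scale.

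**Figure D3:**
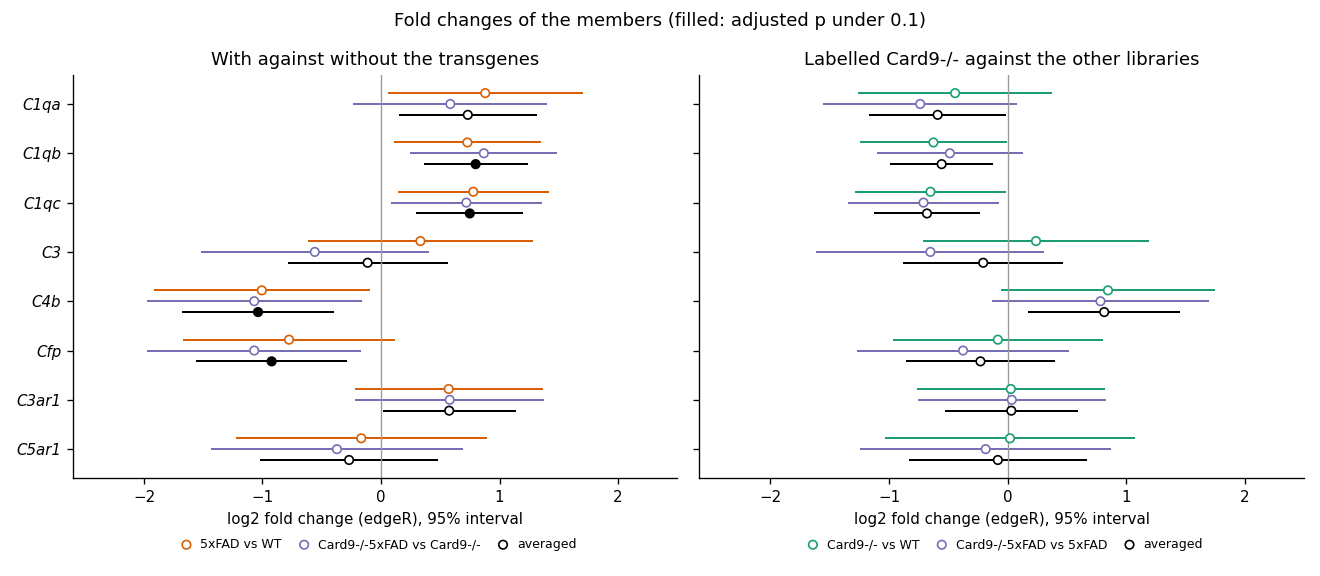
Log2 fold changes of the 8 members tested (edgeR, 16 libraries), with 95% intervals, for the transgenes (left) and for the Card9 label (right), in each background and averaged. Filled points have an adjusted p under 0.1, which only C1qb, C1qc, C4b and Cfp have, in the average over Card9 genotypes. In the right panel the C1q chains lie below 0 and C4b above 0 without passing.

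Taken in each *Card9* background by itself, no member passed. In 5xFAD against WT, 0 of 8 passed (2.09% of all genes), with adjusted p of 0.332 or more, and DESeq2 called 0 in a fit of all libraries (3.24% of the genes to which it gave an adjusted p) and 3 in a fit of these 8 (4% of them). There 4 had an unadjusted p under 0.05 (10.8% of all genes): *C1qa* (0.88, SE 0.39), *C1qb* (0.73, SE 0.29) and *C1qc* (0.78, SE 0.30) higher and *C4b* (−1.01, SE 0.43) lower. The ranges of 3 members, the C1q chains, did not overlap. In *Card9*-/-5xFAD against *Card9*-/-, 0 of 8 passed (1.97% of all genes), with adjusted p of 0.205 or more, and DESeq2 called 1 in a fit of all libraries (4.82%) and 0 in a fit of these 8 (2.59%). There 4 had an unadjusted p under 0.05 (12.2% of all genes): *C1qb* (0.87, SE 0.29) and *C1qc* (0.72, SE 0.30) higher, and *C4b* (−1.07, SE 0.43) and *Cfp* (−1.07, SE 0.43) lower. The range of 1 member, *C1qb*, did not overlap (7.01% of all genes). Without the 4 libraries of low microglia markers, 3 of 8 passed in this comparison, *C1qb*, *Cfp* and *C3ar1*, against 16.7% of all genes.

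The comparisons in both backgrounds share no library. The test of the difference between them, the interaction of transgenes and *Card9* label, called 0 of 8 members (0% of all genes, and 0 members and 78 of all genes at an unadjusted p under 0.05), and DESeq2 called no member. The interaction was 0.14 for *C1qb* (95% interval −0.73 to 1.01), −0.06 for *C1qc* (−0.96 to 0.84) and −0.06 for *C4b* (−1.35 to 1.22), and it was farthest from 0 for *C3*, at −0.89 (−2.24 to 0.46), on the log2 scale. With 4 libraries a group, differences within these intervals were not excluded.

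The second question was whether the *Card9* label went with complement expression. In *Card9*-/- against WT, 0 of 8 members passed by edgeR (0% of all genes). DESeq2 on all libraries called 0 members and 5 of all genes. There 2 had an unadjusted p under 0.05 (4.11% of all genes), *C1qb* at −0.62 (SE 0.29) and *C1qc* at −0.65 (SE 0.30), and 0 had ranges that did not overlap (2.66% of all genes). In *Card9*-/-5xFAD against 5xFAD, 0 passed by edgeR (0% of all genes), and DESeq2 on all libraries called 0 members and 2 of all genes. Only *C1qc* had an unadjusted p under 0.05 (−0.71, SE 0.30), as did 2.52% of all genes. Only *C1qa* had ranges that did not overlap (−0.74, SE 0.39), as did 1.89% of all genes. Both comparisons draw on the same genotypes as those above and are not independent of them.

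Averaged over the transgenes, 0 of 8 members passed (0.0276% of all genes), with adjusted p of 0.496 or more, and 4 had an unadjusted p under 0.05 (9.12% of all genes). These were *C1qa* at −0.59 (SE 0.27), *C1qb* at −0.56 (SE 0.21) and *C1qc* at −0.68 (SE 0.21), lower under the *Card9*-/- label, and *C4b* at 0.82 (SE 0.30), higher. DESeq2 on the same 16 libraries called 2 members, *C1qb* and *C1qc*, and 106 of the 2623 genes to which it gave an adjusted p (4.04%). It gave no adjusted p to *C3*, *C4b* and *Cfp* here, so these could not be called. The median was −0.22 over the members and 0.13 over all genes. By contrast *C3ar1* (0.03, 95% interval −0.53 to 0.59) and *C5ar1* (−0.08, −0.83 to 0.67) lay near 0, and their sign changed between fits.

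Within a library the C1q chains did not keep one ratio. *C1qc* stayed close to *C1qb*: the ratio of their counts per kb was 0.473 to 0.529 in WT, 0.478 to 0.515 in *Card9*-/-, 0.511 to 0.540 in 5xFAD and 0.397 to 0.477 in *Card9*-/-5xFAD. The last group lay below 5xFAD without overlap, in values looked at after the data were seen and not tested. *C1qa* was less steady. Its ratio to *C1qb* was 0.158 in WT 1, 0.223 in *Card9*-/- 4 and 0.163 in *Card9*-/-5xFAD 4, all libraries of low microglia markers, and 0.265 to 0.429 in the other 13. Pearson's r of log2 CPM over the 16 libraries was 0.98 for *C1qb* with *C1qc* and 0.78 for *C1qb* with *C1qa*, and after subtracting genotype means 0.98 and 0.52. These are descriptions over libraries that share genotypes, sort purity and depth.

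**Figure D4:**
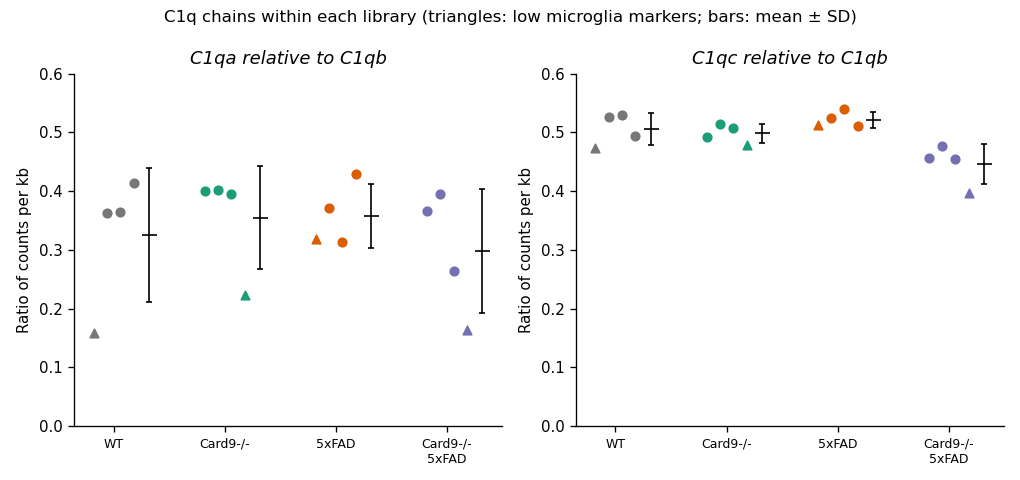
Ratio of counts per kb of C1qa to C1qb (left) and of C1qc to C1qb (right) in each library, with the mean ± SD of each genotype (n = 4). C1qc to C1qb spans 0.397 to 0.540, and C1qa to C1qb falls to 0.158, 0.163 and 0.223 in 3 of the 4 libraries of low microglia markers (triangles).

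The receptors followed each other, with r = 0.70 over the 16 libraries and 0.94 within genotypes, and *C4b* ran against *C1qb* (r = −0.82, and −0.44 within genotypes). The genes whose log2 CPM was most like that of each member, by Pearson's r over 16 libraries, were *Ddrgk1*, *Mrto4* and *Laptm4a* for *C1qa* (0.96 to 0.97) and *C1qc*, *Ubb* and *Tmed10* for *C1qb* (0.97 to 0.98). For *C1qc* they were *C1qb*, *Tmem50a* and *Sparc* (0.96 to 0.98). They were *Lamp2*, *Tpm4* and *Pmp22* for *C3ar1* (0.97) and *Mfap3*, *Mid1ip1* and *AI467606* for *C5ar1* (0.96 to 0.97). *Cfp* was most like *Pla2g2d*, *Cd209a* and *Mettl17* (0.91 to 0.95), *C4b* most like *Sugp2*, *Khnyn* and *Slc12a7* (0.94), and *C3* had looser partners in *Rps6ka2*, *Cxcr4* and *Adgrg3* (0.77 to 0.82).

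The rest of the complement system was read from a list of 46 other genes, all in the table, of which 23 had enough counts to be tested. With the transgenes averaged over *Card9* genotypes, 2 of the 23 were higher, 3 were lower and 18 did not pass, against 11.3% of all genes tested (5.62% higher and 5.73% lower), with a median log2 fold change of −0.46, against −0.15 over all genes. *Itgax*, the α chain of complement receptor 4, had 6.93 to 14.3 CPM without and 78.7 to 215 CPM with the transgenes, and rose by 3.83 on the log2 scale (SE 0.24, adjusted p = 4.78e-08). *Masp1*, a serine protease of the lectin pathway, had 3.31 to 10.7 CPM without and 11.3 to 47.5 CPM with them, and rose by 1.96 (SE 0.33, adjusted p = 0.00153). For both genes the 8 libraries with and the 8 without transgenes did not overlap. The share of all genes tested that separated in this way was not counted. Both passed in each *Card9* background by itself, as 2.09% and 1.97% of all genes did: *Itgax* at 3.98 (SE 0.34, adjusted p = 7.49e-06) and 3.67 (SE 0.33, adjusted p = 1.21e-05), and *Masp1* at 2.20 (SE 0.47, adjusted p = 0.0230) and 1.72 (SE 0.46, adjusted p = 0.0934), for 5xFAD against WT and for *Card9*-/-5xFAD against *Card9*-/-.

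The 3 genes that fell were soluble or membrane lectins and a receptor linked to C1q. *Cd93*, a membrane protein of phagocytes and endothelium, had 8.90 to 24.2 CPM without and 4.14 to 12.4 CPM with the transgenes, and changed by −1.16 (SE 0.25, adjusted p = 0.00962). *Colec12*, a scavenger receptor with a lectin domain, changed by −1.09 (SE 0.33, adjusted p = 0.0583), and *Fcna*, a ficolin made by macrophages, by −0.80 (SE 0.25, adjusted p = 0.0695), beside the fall of the border macrophage markers given above, whose part was not tested.

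Other genes stood at high levels without passing. *Itgam* and *Itgb2*, which together code for complement receptor 3 (*Itgam* codes for CD11b, the antigen of the sort), averaged 345 and 436 CPM and changed by 0.08 (SE 0.23) and 0.15 (SE 0.29). In the annotation 68.7% of the exon bases of *Itgam* are also exon of another gene on the same strand, so its level is uncertain. Of the proteases that join C1q, *C1ra* averaged 3.18 CPM and *C1s1* had at most 2 counts in a library. The next component, *C2*, averaged 2.06 CPM, and 42.8% of its exon bases are shared with *Gm20547*. Of the 6 genes of the C1 proteases and classical pathway 2 were tested, of the 9 of the lectin pathway 4, of the 7 of the terminal pathway 1, of the 14 regulators 8 and of the 9 receptors 8, and *Cfd*, the protease that activates factor B, had 0 counts in every library. In the 3 contrasts of *Card9* labels and in the interaction, 0 of the 23 passed by edgeR or DESeq2. In the average over the transgenes, 2 had an unadjusted p under 0.05, as did 9.12% of all genes. In the others 0 did, against 4.11% of all genes in *Card9*-/- against WT and 2.52% in *Card9*-/-5xFAD against 5xFAD. In the interaction 78 of all 14513 genes did.

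**Figure D5:**
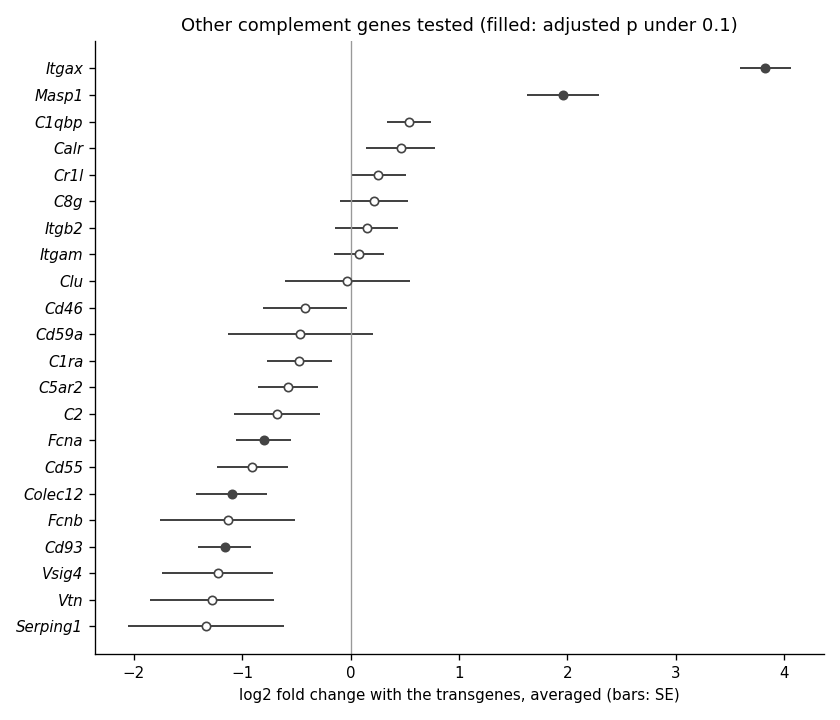
Log2 fold change with the transgenes, averaged over Card9 genotypes, of all but 1 of the 23 other complement genes tested, with SE (edgeR, 16 libraries). Itgax (3.83) and Masp1 (1.96) lie far to the right, and of the genes below 0 Fcna, Colec12 and Cd93 are filled, with an adjusted p under 0.1.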

How the data were processed

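RNA of bead-sorted CD11b+ brain cells was sequenced in 16 libraries. The authors aligned reads to mm10 with HISAT2, filtered them with Samtools, counted them per gene with HTSeq and deposited raw read counts, without normalization; strand setting and filters are not given in the sources used here. Counts were tested in R 4.3.3 with edgeR 4.0.16 (quasi-likelihood, TMM, filterByExpr with a minimum count of 10, 4 groups in 1 fit, 7 contrasts, Benjamini-Hochberg within each, threshold 0.1), which kept 14513 genes and 8 of the 9 members. The average contrasts are means of 2 log2 fold changes, and log2 CPM adds a prior count of 2. All 24 pairs of libraries of 1 genotype differed by more than sampling noise (chi-square of at least 6.28 for each degree of freedom). DESeq2 1.42.0, sva 3.50.0, other filters and left-out libraries were alternatives, and the fits were tested on simulated data. Positions are from GENCODE M21 and promoters from RefSeq (GRCm38.p6). The members, lists, motifs and tests were chosen with earlier results of these data known. Named were all members, other complement genes that passed in any contrast and *C4a*, the 3 genes most like each member, and *Card9* and *Cst7* as checks of the labels. Other genes named (*Itgam*, *Itgb2*, *C1ra*, *C1s1*, *C2* and *Cfd*) were chosen after their values were seen. Of the cell type lists, microglia, neuron, oligodendrocyte, fibroblast, choroid plexus, B cell and T or NK cell markers had 0 calls with the transgenes, 2 astrocyte markers were higher, and 1 endothelial cell marker and 1 of 15 early response genes were lower. The values of 1 gene of the list of other complement genes are not reported here.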

Additional observations from a re-analysis of the deposited data

Results flagged for a closer look

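Of 32 groups of 4 libraries examined (8 members in 4 genotypes), 2 held a library whose gap to its nearest neighbor, as a share of the group's range, was above Dixon's 95% critical value. Chance gives about 1 in 20. In *Card9*-/-5xFAD 3, *C1qb* stood at 9988 CPM, while libraries 1, 2 and 4 of that genotype spanned 5361 to 6146 CPM. In WT 4, *C3* stood at 15.8 CPM, while WT 1 to 3 spanned 4.71 to 5.74 CPM.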

How the results depend on the processing

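Of 779 refits of the 30 log2 fold changes given above, 690 kept their direction and their side of the threshold, 29 lost a call, 30 gained one and 30 changed sign. All 29 lost calls were among the 4 members called with the transgenes (averaged), and none of their 101 refits changed sign. That count of 4 became 1 with no filter on low counts, 2 at a threshold of 0.05 (by construction, through the stricter limit), and 1 to 5 when 1 library was left out. In single backgrounds the count went from 0 to 5 (5xFAD against WT) and 4 (*Card9*-/-5xFAD against *Card9*-/-) with 1 surrogate variable, to 3 (5xFAD against WT) with DESeq2 on only these groups, and in *Card9*-/-5xFAD against *Card9*-/- to 1 with DESeq2 on all libraries and to 3 without the 4 libraries of low microglia markers. For the *Card9* label averaged over the transgenes it went from 0 to 3 with 1 surrogate variable and 2 with DESeq2. With 1 surrogate variable the calls over all genes went from 304 to 2068, from 286 to 2567 and from 4 to 787 in these 3 contrasts. The cause was not tested in these cases, nor with no filter or with 1 library left out. Over all genes, the count with the transgenes averaged was 1647, and 920 (threshold of 0.05) to 5727 (1 surrogate variable) in the alternatives. Requiring 10 counts in every library moved the median of all genes in this contrast from −0.15 to 0.01.

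Signs changed for values near 0. *C3* with the transgenes averaged was 0.029 with 10 counts in every library, 0.060 without the 2 libraries of fewest counts and −0.23 to 0.18 when 1 library was left out. For the *Card9* label averaged, *C3ar1* was −0.029 with DESeq2 size factors, −0.028 with DESeq2, −0.079 with 10 counts in every library and −0.081 to 0.14 with 1 library left out, and *C5ar1* was 0.18 without the 2 libraries of fewest counts and −0.23 to 0.061 with 1 left out. The interaction of *C1qc* was 0.0041 without the 2 libraries of fewest counts. With 1 library left out, the interaction was −0.31 to 0.13 for *C1qc*, −0.11 to 0.34 for *C1qb* and −0.51 to 0.26 for *C4b*. Among the 26 further changes of members not given above, 49 of 692 refits changed sign. Leaving out the 2 libraries of fewest counts, or the 4 of low microglia markers, was chosen after the data were seen.

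Same-numbered libraries correlated between −0.71 and 0.73 in their deviations from genotype means (median 0.14, 24 pairs). Libraries of other numbers correlated between −0.76 and 0.80 (median 0.02, 72 pairs), and 5 of 16 correlated best with their own number. The labels name no batches, so these values cannot show whether the replicate numbers pair the libraries. With the replicate number as a block, 4 members were called with the transgenes averaged and 0 in each other contrast. The calls over all genes with the transgenes averaged went from 1647 to 1871.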
